A study of Homo sapiens with 2 samples.

Results

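Of the 1485 circRNAs in the deposited table, 15 came from 8 host genes around the Wnt receptor and the beta-catenin destruction complex. These were the co-receptors LRP5 and LRP6, the LRP5 paralog LRP5L, the scaffolds AXIN1 and AXIN2, the inhibitors NKD1 and RNF43 and the kinase TNIK. The 15 circRNAs were taken by host name alone, as every circRNA whose host field held exactly 1 of these symbols. LRP5 gave 6 circRNAs, LRP6 and AXIN1 gave 2 each, and the other 5 hosts gave 1 each. All 15 were read in the library of cells given HD-SB, where they held 408 of 11570 back-splice reads. None was listed in the control library of 91 reads. Of all 1485 circRNAs, 97.8% were likewise listed in HD-SB only.

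A circRNA forms when the splice donor at the end of an exon is joined back to an acceptor upstream of it, and a read across that back-splice junction is the unit counted here. In canonical Wnt signalling a Wnt ligand binds a Frizzled receptor together with the co-receptor LRP5 or LRP6, and the phosphorylated co-receptor tail draws in axin. Without a ligand, axin and APC hold beta-catenin for phosphorylation by CK1 and GSK3 and for degradation. SW620 is a colorectal adenocarcinoma line from a lymph node metastasis, and it carries a truncated APC, so that beta-catenin is stable without ligand.

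There were 2 groups of SW620 cells with 1 library each. The HD-SB cells received an agent labelled Hedyotis diffusa-Sculellaria barbata, a pair of herbs, at 1 mg/mL for 24 h, and the others are labelled Control with no dose, vehicle or time of their own. Linear RNA of both was digested with RNase R before sequencing. With 1 library per group no difference has a replicate check, no p-value is given, and every interval below is an exact 95% interval for counting error alone, which takes each read as a molecule although the libraries were amplified. Both libraries list a circRNA from 2 reads on, so a circRNA not listed had 0 or 1 read. Among markers of the labelled cell type, colorectal epithelium, 3 of 15 genes hosted circRNAs in the HD-SB library (VIL1, EPHB2 and EPCAM, 54 reads in all), against 0 of 10 fibroblast and smooth muscle genes, 0 of 6 endothelial genes and 1 of 10 leukocyte genes (PTPN22, 4 reads). None of these markers was listed in the control, nor were 97.8% of all 1485 circRNAs. In both libraries together, 5.35% of protein-coding genes of the GENCODE 29 annotation hosted circRNAs. At that share, lists this short would hold few hosts or none, so counts of 0 or 1 do not set those cell types apart.

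The exons in each circle were identified from distances, because the positions in the table did not fall on annotated exons of the hosts in GENCODE 29 (build GRCh38) for any of the 15. The positions below are those of the table, in a build that is not known, and none was converted. For all 15 the span equalled, to the base, the distance from the start of an exon to the end of the same or a later exon of the host. Over all circRNAs of the HD-SB library whose host is in GENCODE 29, 1263 of 1387 (91.1%) had such a match. For 14 of the 15 only 1 place in the host had the right distance. LRP5 has 2 exons of 397 nt, exon 2 and exon 6, and the circle of that span was placed at exon 2 by its distance to the starts of the other 5 circles of LRP5. Spliced lengths below assume that every annotated exon between the ends is kept.

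The junctions of the 6 most-read circles, which identify them, follow, with the joined ends read from the GENCODE 29 transcripts 5′ to 3′. Lower case marks the end of the last exon in the circle and capitals the start of the first. The counterpart of the LRP5L junction in LRP5, which is not in the table, is given beside it to show how close these paralogs are.
LRP5L exons 2 to 3: agcagcagcctttctGTACATGTACTGGGC
LRP5 exons 3 to 4, not in the table: agcggcagcctttctGTACATGTACTGGAC
LRP6 exon 2: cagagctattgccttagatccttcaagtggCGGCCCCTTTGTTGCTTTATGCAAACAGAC
LRP5 exon 2: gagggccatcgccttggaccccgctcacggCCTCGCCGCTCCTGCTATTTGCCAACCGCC
LRP5 exons 6 to 7: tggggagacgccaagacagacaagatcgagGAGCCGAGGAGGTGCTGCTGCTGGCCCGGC
AXIN1 exons 3 to 5: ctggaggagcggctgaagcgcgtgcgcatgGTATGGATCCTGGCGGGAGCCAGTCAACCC
AXIN1 exons 6 to 7: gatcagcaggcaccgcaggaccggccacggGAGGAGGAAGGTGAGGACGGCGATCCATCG

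Reads of LRP5, LRP6 and the LRP5 copy LRP5L dominated. Together they held 365 of the 408 reads (89.5%) on 9 circRNAs, and the other 5 hosts held 43 reads on 6 circRNAs. Of the 365, LRP5L held 142, and the co-receptors LRP5 and LRP6 held 123 and 100. The 3 most-read circles, 1 from each of LRP5L, LRP6 and LRP5, carried 323 reads or 79.2%, and all had a spliced length of 394 to 397 nt. They were the 3rd, 9th and 13th most-read circRNAs of the 1475 listed in HD-SB. LRP5 exons 6 to 7 and AXIN1 exons 3 to 5 followed with 29 and 18 reads, and the other 10 circles had 2 to 8 reads. The median of the 15 was 4 reads, against 5 over all circRNAs of the library, and 8 of the 15 lay under that median.

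**Figure D1:**
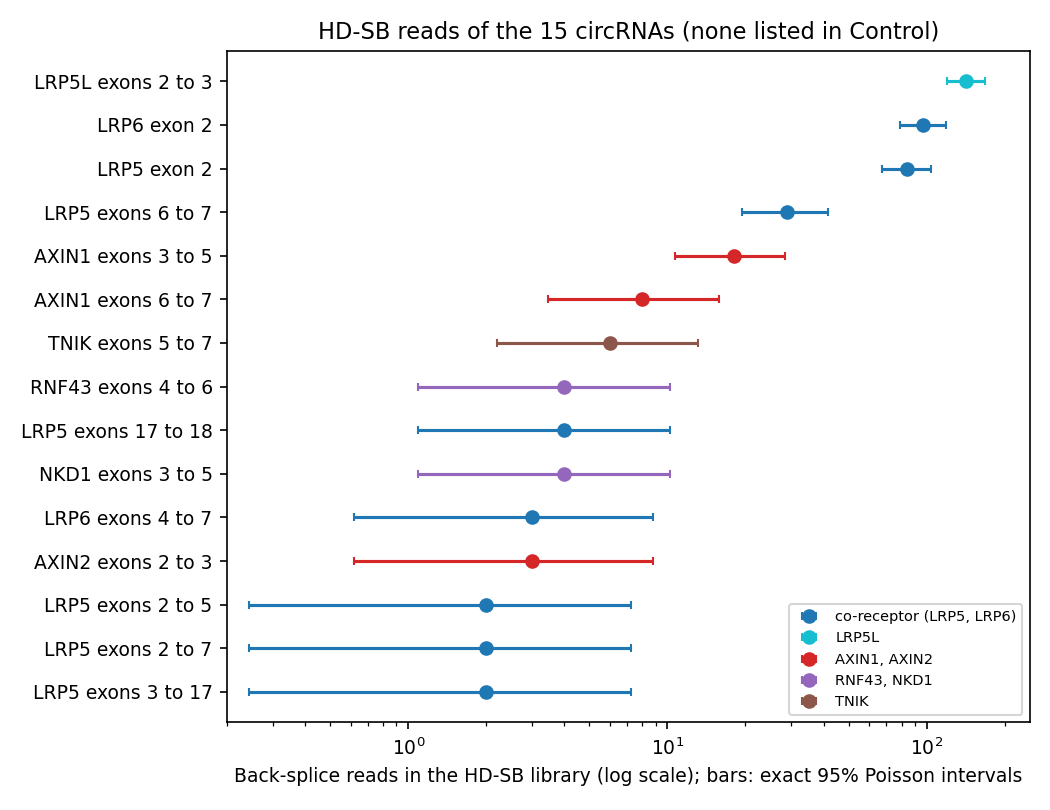
Back-splice reads of each of the 15 circRNAs in the HD-SB library, on a log axis, with exact 95% Poisson intervals, coloured by the role of the host. LRP5L (142 reads), LRP6 exon 2 (97) and LRP5 exon 2 (84) stand above the other 12, which had 2 to 29 reads.

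LRP6 is a single-pass co-receptor whose extracellular part carries propeller domains that bind Wnt and the antagonist DKK1. Its main circle, hsa_circ_0000378 (chromosome 12, 12397196 to 12397589, span 394 bp), is exon 2 of 23 alone and is coding throughout. It had 97 reads in HD-SB (78.7 to 118.3), or 8384 CPM, that is reads per 1000000 back-splice reads of the library, and was not listed in the control. It was the most-read of the 82 single-exon circles in the HD-SB library, whose median was 5 reads. The other LRP6 circle, hsa_circ_0008932 (12332744 to 12340053, exons 4 to 7, 898 nt spliced), had 3 reads in HD-SB. Exon 2 thus held 97 of the 100 LRP6 reads, or 97.0% (91.5 to 99.4).

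LRP5, the close relative of LRP6 best known for its role in bone mass, was led by the circle of the corresponding exon. That circle, hsa_circ_0023179 (chromosome 11, 68115315 to 68115711, span 397 bp), is exon 2 of 23 and coding throughout, and had 84 reads in HD-SB (67.0 to 104.0), or 7260 CPM. It ranked 3rd among the 82 single-exon circles. Its counting interval overlaps that of LRP6 exon 2, so the order of these circles is not resolved. The exons themselves differ, at 62.7% identity over an alignment of 405 columns, and their GC contents were 65.0% in LRP5 and 42.6% in LRP6.

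LRP5 also gave a circle of exons 6 to 7 (68153784 to 68157520, 569 nt spliced) with 29 reads in HD-SB (19.4 to 41.6). It has no circBase identifier, the catalogue number of circRNAs reported before, and was 2nd by reads among the 360 circRNAs of the library without one. The remaining 4 LRP5 circles had 4 reads (hsa_circ_0023219, exons 17 to 18) or 2 reads each (hsa_circ_0023182, exons 2 to 5; exons 2 to 7; exons 3 to 17). The last spans 72051 bp and would hold 15 exons and 3275 nt if all were kept. These circles reuse a few splice sites. The acceptor of exon 2 closes 3 circles with 88 reads, and the donor of exon 7 closes 2 circles with 31 reads. Exon 17 ends 1 circle and begins another.

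LRP5 was 1 of 7 protein-coding host names, of 1062 in the library, with 6 or more circRNAs. Its lead circle held 68.3% of its 123 reads (59.3 to 76.4), against a median of 62.5% over the 245 host names with several circRNAs. By summed reads LRP5L ranked 6th, LRP5 10th and LRP6 12th of 1193 host names. The counting intervals of LRP5L (120 to 167 reads), LRP5 (102 to 147) and LRP6 (81.4 to 121.6) overlap between neighbours. The 245 and 1193 names are not limited to protein-coding genes. They include small-RNA names such as Y_RNA, and a circRNA counts under each name in its host field.

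**Figure D2:**
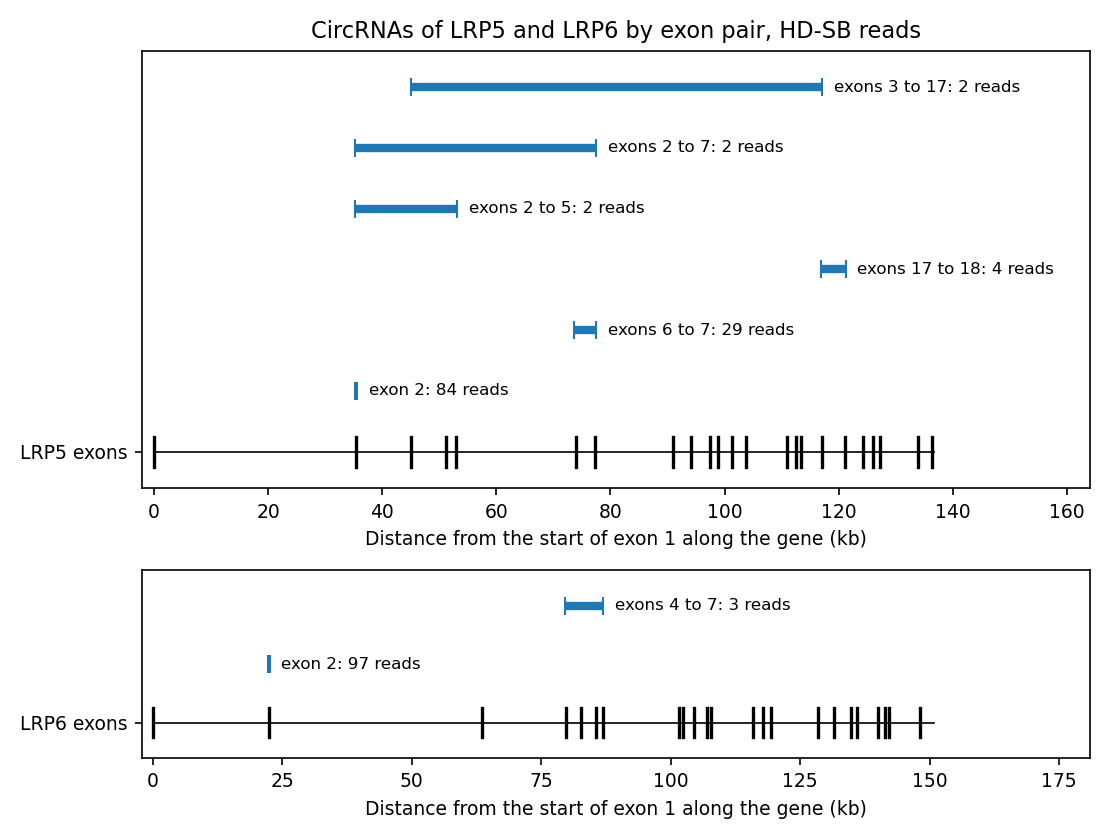
Exons of LRP5 (upper panel) and LRP6 (lower panel) drawn as black ticks at exon midpoints, by distance in kb from the start of exon 1 in GENCODE 29, with each circle as a blue bar from its first to its last exon and its HD-SB reads beside it. In both genes the most-read circle is exon 2 alone, with 84 reads in LRP5 and 97 in LRP6.

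The most-read circle of all 15 came from LRP5L, a partial copy of LRP5 that RefSeq classes as a transcribed pseudogene and GENCODE 29 as protein coding. Its circle, hsa_circ_0003102 (chromosome 22, 25771780 to 25777545, span 5766 bp), had 142 reads in HD-SB (120 to 167), or 12273 CPM, which is 1.23% of the library (1.03 to 1.44). It stood next to ATXN7 (hsa_circ_0007761, 211 reads) above it and RBM33 (hsa_circ_0001772, 136 reads) below it, and its interval includes the RBM33 value. It matched exons 2 to 3 of a noncoding LRP5L transcript, 394 nt spliced. In the annotated coding transcript of LRP5L, whose first exon is 1 base shorter, the same exons are 5′ UTR.

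Those LRP5L exons correspond to exons 3 to 4 of LRP5. They were identical at 358 of 395 aligned positions (90.6%), against 61.9% with exons 3 to 4 of LRP6, and the longest stretch shared without a difference was 50 bases with LRP5 and 13 with LRP6. Around the back-splice, 28 of the 30 bases were identical to LRP5. No circle of LRP5 exons 3 to 4 was listed. The 2 differing bases lie on opposite sides of the back-splice, so a read of 30 bases or more across it covers a difference. A read that covers none could come from either gene, so the 142 reads are uncertain between LRP5L and LRP5 to that extent. The read length is not given in the sources used here, and the split was not tested.

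AXIN1, the scaffold on which beta-catenin is phosphorylated, gave 2 circles that do not overlap. Exons 3 to 5 of 11 (hsa_circ_0037158, chromosome 16, 354304 to 364683, 376 nt spliced) had 18 reads in HD-SB (10.7 to 28.4). Exons 6 to 7 (hsa_circ_0004947, 347056 to 348251, 701 nt spliced) had 8 reads (3.45 to 15.8). The lead circle held 69.2% of the AXIN1 reads with an interval of 48.2 to 85.7, so a lead over the other was not resolved. AXIN2, a related scaffold that is itself induced by Wnt signalling, gave exons 2 to 3 (hsa_circ_0045350, chromosome 17, 63545638 to 63554854, 1072 nt spliced, of which 956 nt are coding) with 3 reads (0.619 to 8.77). Its host field also names CTD-2535L24.2, and reads of overlapping genes cannot be told apart by position alone.

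The inhibitors RNF43 and NKD1 and the kinase TNIK gave 1 circle each, of 4 to 6 reads. RNF43, a ubiquitin ligase that removes Frizzled from the cell surface, gave exons 4 to 6 (hsa_circ_0044776, chromosome 17, 56439905 to 56440961, 312 nt spliced) with 4 reads. NKD1, which binds Dishevelled, gave exons 3 to 5 (chromosome 16, 50583333 to 50655619) with 4 reads, and although this circle spans 72287 bp its exons add up to 308 nt. TNIK, a kinase that phosphorylates TCF4 in the beta-catenin complex, gave exons 5 to 7 (hsa_circ_0002387, chromosome 3, 170906491 to 170912424, 333 nt spliced) with 6 reads (2.20 to 13.1). The intervals of all these circles, and of both AXIN1 exons 6 to 7 and AXIN2, overlap, so no order among them is resolved.

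**Figure D3:**
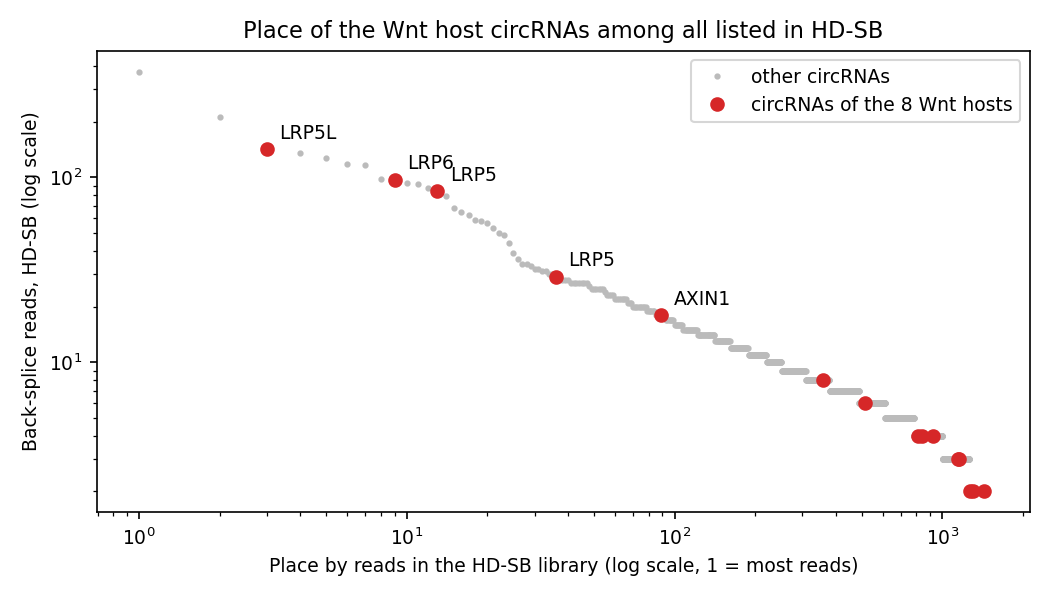
All 1475 circRNAs of the HD-SB library by place (x, log scale) and back-splice reads (y, log scale), with the 15 of the Wnt hosts in red and the first 5 named. LRP5L, LRP6 and LRP5 take the 3rd, 9th and 13th places, and 10 of the 15 lie at 8 reads or fewer.

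The comparison of HD-SB with control cells asks which circRNAs differ after the herbs. For these hosts the HD-SB library had 408 reads, 3.53% of its total (3.20 to 3.88), and the control had no listed read. A count of 0 of 91 reads allows a share of up to 3.97%, the exact limit, which is above the HD-SB share. Each circle may also hold 1 unlisted read there, so the control share of the 15 is not bounded by that value. Without LRP5L the HD-SB share was 2.30%. At the HD-SB share 3.21 of 91 control reads would be expected over all 15 circles, 1.12 of them on LRP5L, 0.763 on LRP6 exon 2 and 0.661 on LRP5 exon 2. Each of these circles is thus expected under the 2 reads that listing needs. Only 1 circRNA of the whole table had the 255 HD-SB reads at which 2 control reads would be expected. A higher or an equal level in HD-SB could therefore not be told apart at this depth. In the other direction, no single circle of the 15 reached the 2 reads, 2.20% of the control library, from which it would have been listed there.

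All 15 were listed in HD-SB only, as were 97.8% of all 1485 circRNAs, so that count is not particular to these hosts. On the scale log2((HD-SB + 172.861)/(control + 172.861)) in CPM, with circRNAs not listed taken as 0, 7 of the 15 had a mean level above the filter of 216 CPM. All 7 were higher in HD-SB by 2-fold or more, as were 96.0% of the 797 circRNAs above the filter. Their median log2 ratio was 3.95, against 2.17 over all 797, with 6.17 for LRP5L, 5.63 for LRP6 exon 2 and 5.43 for LRP5 exon 2. For a circRNA listed in a single library such a ratio is set by its own level and the added constant, and it carries no information on the control. For a circRNA listed in HD-SB only, a mean past the filter already forces a ratio past 2-fold. The call of all 7 was therefore fixed in advance.

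Most of these circles were richer in GC than each of the 30 control circRNAs whose exons could be matched. The 15 had a median of 63.2% (range 42.6 to 67.3). The median of the 1263 exon-matched circRNAs of the HD-SB library was 50.0%. That of the 30 exon-matched circRNAs of the control was 43.9%, and none of those 30 lay above 57.6%. Of the 15, 11 lay above that highest control value, as did 25.1% of the HD-SB circRNAs. The 11 include all 6 circles of LRP5, several of which share exons, and both of AXIN1, so they are not independent. The 4 below the highest control value were both LRP6 circles (42.6% and 45.8%), TNIK (45.3%) and AXIN2 (53.5%). The part of GC content in the listing of these circRNAs was not tested.

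**Figure D4:**
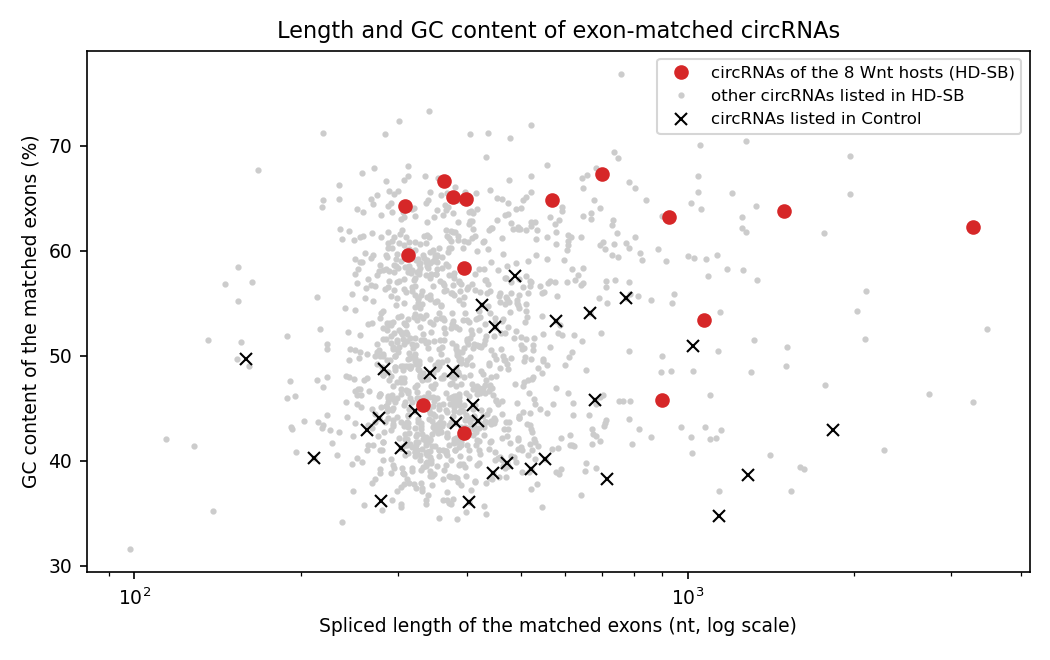
GC content (y, %) against spliced length (x, nt, log scale) of the exon-matched circRNAs, with the 15 of the Wnt hosts as red points, other circRNAs of HD-SB as grey points and those of the control as crosses. Red points lie mostly above 57.6%, the highest control value.

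The 15 are set beside the library in structure as a description, with no test. Their median spliced length was 397 nt (range 308 to 3275), against 371 nt over all matched circRNAs. Their median span was 5934 bp (range 394 to 72287), against 4076 bp over all circRNAs listed in HD-SB. Exon number had a median of 3 in both. Exon 2 was the first exon of 6 of the 15 (40.0%), against 26.7% of matched circRNAs in HD-SB, and none of the 15 began at exon 1 or ended at a last exon. Single-exon circles were 2 of 15 (13.3%), against 6.49%. Coding sequence made up the whole of 13 circles, and the length was divisible by 3, so that a reading frame would continue around the circle, in 4 (TNIK, RNF43 and LRP5 exons 17 to 18 and 2 to 5), against 37.1% of all matched circRNAs. A circBase identifier was given for 11 of 15 (73.3%), against 75.6%, and the 4 without one were 3 circles of LRP5 and that of NKD1.

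The series is concerned with hsa-miR-204-5p, whose mature sequence in RefSeq (GRCh38.p14) is shown with its seed, bases 2 to 8, in capitals.
hsa-miR-204-5p: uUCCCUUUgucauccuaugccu
The complement of the seed, AAAGGGA, was searched on the host strand of each circle, across the junction as well. It occurred in 0 of the 15 and in 53 of the 1263 matched circRNAs of HD-SB (4.20%). Absence of these letters from the assumed exons says nothing on binding by other pairing.

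Of 130 further gene names of the Wnt pathway in 6 groups, 4 (3.08%) hosted 1 circRNA each. The names include both AMER1 and its older name WTX, so 1 gene was counted in duplicate. Over the whole table, 1066 of 19936 protein-coding genes of GENCODE 29 (5.35%) hosted circRNAs. The 130 leave out the 8 hosts, each of which hosted a circRNA. The 3.08% is therefore not the share of the whole pathway and cannot be compared with the 5.35%. The 4 had 20 HD-SB reads in all and no listed control read. They were CREBBP, a histone acetyltransferase and beta-catenin coactivator (hsa_circ_0007637, exon 2 alone, 9 reads), CSNK1G2, a gamma isoform of casein kinase 1 (exon 2 alone, 5 reads), CELSR1, a planar polarity cadherin (exons 3 to 5, 4 reads), and FBXW11, a ubiquitin ligase subunit that recognises phosphorylated beta-catenin (2 reads), whose host field also holds 3 small-RNA names. The 15 Frizzled and other receptor genes, the 22 genes of ligands and their secretion, WNT11 among them, and the 22 genes of secreted or surface modulators had no listed circRNA, which leaves those of 0 or 1 read unseen. APC, GSK3B and CTNNB1 hosted none either. These lists, like the 8 hosts, were drawn up with earlier results of these data known.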

How the data were processed

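The deposited table gives 1 value per circRNA and library, named TPM per the file headers. The values behaved as CPM as deposited by the authors: each column summed to 1000000 and a listed value was in 100% of cases a whole multiple, within 0.01 of a step, of 86.4 CPM in HD-SB and of 10989 CPM in the control. Dividing by the step gave reads. Values of 0.001 were taken as not listed. Per the submitters' processing notes FastQC, HISAT2 2.1.0 and GRCh38 are listed, with no role stated. How circRNAs were called and duplicates handled is not given in the sources used here.

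Spans (end minus start plus 1) were matched to exon pairs of GENCODE 29 by exact distance, in a coding transcript with the most exons where several matched. This matching was added after the data were seen and was tested on simulated data. Of 1485 circRNAs, 1397 had a host in GENCODE 29 on the same chromosome. Global alignments (Biopython 1.88, match 2, mismatch -3, gap -5 and -2) replaced the planned protein identity, as no protein table was used here. Intervals are Clopper-Pearson for shares and exact Poisson for reads (SciPy 1.17.1). The constant 172.861 CPM is the 5th percentile of listed values and the filter of 216 CPM the median of the mean of both libraries.

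The named circRNAs are every one of the 8 hosts, those with most reads in each further list and the neighbours in rank of the first. Members and lists were chosen with earlier results of these data known. Alternatives left out LRP5L, the most-read circRNA or circRNAs without an identifier, and varied the listing minimum, constant, filter, threshold, scaling and denominator. A list of genes fixed at the start is not reported here.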

Additional observations from a re-analysis of the deposited data

How the results depend on the processing

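The 6 summary values were recomputed under 32 alternatives in all, of which 25 stayed within their interval or within 1.5 times. That count is not a measure of stability. Leaving out LRP5L and leaving out the most-read circRNA are the same removal counted separately. The control share was 0 under every alternative, and 2-fold calls follow from listing in HD-SB only. Without LRP5L, which is also the circRNA with most reads, the HD-SB share was 2.30% in place of 3.53%. With a listing minimum of 5 reads, 7 circRNAs were listed in HD-SB only, with a median of 29 reads and a median span of 3737 bp, since low circles drop out. The 7 at least 2-fold higher became 15 with no filter and 0 among circRNAs in both libraries, where none of the 15 is listed. The log2 ratios of the 15 ran from 0.32 to 8.15 over 3 alternatives, and listing in HD-SB only fixes their sign. No paired analysis was possible because HD-SB and control are single libraries. Depth is limited by the control, with 91 reads.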

Other observations

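LRP5 and LRP6 each have 23 exons in the transcripts used, of which 15 have equal lengths in both genes, and exon 2 was the sole exon pair that the circles of both genes had in common.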
